A study of Homo sapiens with 4 samples.

Results

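Genes that carry out DNA replication or control entry into S phase were followed across 4 RNA sequencing libraries of MCF10A, an established non-tumour human mammary epithelial cell line. The set holds 40 genes, of 25317 gene symbols in the deposited tables, and all 40 were found. They were chosen by name for their roles, with earlier results of these data known. Every library came from MCF10A cells infected with a lentivirus of the pHIV-ZsGreen type and sorted by flow cytometry for the green marker on day 6. The first carried Zeb1 and the second Snail, repressors known for driving epithelial cells toward a mesenchymal state. The third carried Ovol2, a repressor known for holding cells in the epithelial state. The fourth carried the empty vector (EV), so the controls share the infection, the marker and the sort. Each group held 1 library, with no replicate, so no difference below has a test, a standard error or a p-value, and each describes these libraries.

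Cells prepare for replication in G1, when the origin recognition complex, CDC6 and CDT1 load the MCM2 to MCM7 ring onto DNA as an inactive helicase. At the G1/S boundary, cyclin E with its kinase releases E2F transcription factors from the retinoblastoma protein, and E2F switches on many of the genes listed here. CDC45 and the GINS complex then activate the helicase, and primase, polymerases, the PCNA clamp and its loader copy the strands. In a mammary epithelial line grown with epidermal growth factor, the level of these transcripts is commonly read as a sign of how many cells are cycling. In bulk RNA, fewer cells in S phase and less of these transcripts per cell cannot be told apart.

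Values are in FPKM, a read-out per transcript length and per library size, and differences are log2 ratios of FPKM + 1, the factor library over the EV library. A gene was kept where either library reached 1 FPKM, and was called lower or higher where its ratio reached 1 or more in size, a 2-fold difference. Depth, estimated from the steps between low values, ran from about 25900000 fragments with Ovol2 to 36300000 with Zeb1. ZEB1 stood at 17.3 FPKM in the Zeb1 library, SNAI1 at 99.7 FPKM in the Snail library and OVOL2 at 78.3 FPKM in the Ovol2 library, against 0.260, 0.152 and 6.32 FPKM with EV. Of 12 mammary epithelial markers, 11 reached 1 FPKM with Zeb1, 10 with Snail, 11 with Ovol2 and 11 with EV, and KRT19 lay under 1 FPKM in all 4. Their summed level was 2637 FPKM with Zeb1, 7884 with Snail, 5146 with Ovol2 and 9608 with EV. Of these sums the highest single marker gave 1571, 4972, 4624 and 5736 FPKM, in that order. The median marker stood at 37.0 FPKM with Zeb1, 104 with Snail, 28.7 with Ovol2 and 97.3 with EV. Of 11 kept markers, 11 were lower than EV by 2-fold with Zeb1, 1 with Snail and 7 with Ovol2. Of all kept genes, 8.49%, 1.5% and 25.1% were. The 8 immune markers summed to 21.9 FPKM with Zeb1, 3.26 with Snail, 8.01 with Ovol2 and 3.27 with EV, led in the Zeb1 library by CD14 at 17.0 FPKM, while CD3E was listed at 0 in all 4. The 8 endothelial markers summed to 0.576 FPKM with Zeb1, 0.357 with Snail, 1.69 with Ovol2 and 0.252 with EV. The RNAs RMRP and RPPH1 together took 22.1% of all FPKM with Zeb1, 18.7% with Snail, 40.6% with Ovol2 and 24.6% with EV. The part of these marker and RNA levels in the results was not tested, and values without RMRP and RPPH1 are given for the main counts and medians that move.

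The replication and G1/S genes were lower in the Zeb1 library, near the EV level in the Snail library, and mostly lower in the Ovol2 library, where the median of all kept genes was lower as well. Their summed level was 175 FPKM with Zeb1, 394 with Snail, 268 with Ovol2 and 381 with EV. Single genes ran from 0.531 to 28.7 FPKM with Zeb1, from 1.69 to 55.3 with Snail, from 0.906 to 71.7 with Ovol2 and from 1.46 to 61.2 with EV. Of the 40, 29 had their lowest value in the Zeb1 library and 11 in the Ovol2 library. The highest value stood in the Snail library for 25 genes, in the EV library for 9, in the Ovol2 library for 6 and in the Zeb1 library for 0. By approximate fragments, the lowest value was 34.5 for POLE2 with Zeb1, the median over genes and libraries was 411, and 5 of 160 values lay under 100. Those 5 belong to CDC45, POLE2 and TYMS.

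**Figure D1:**
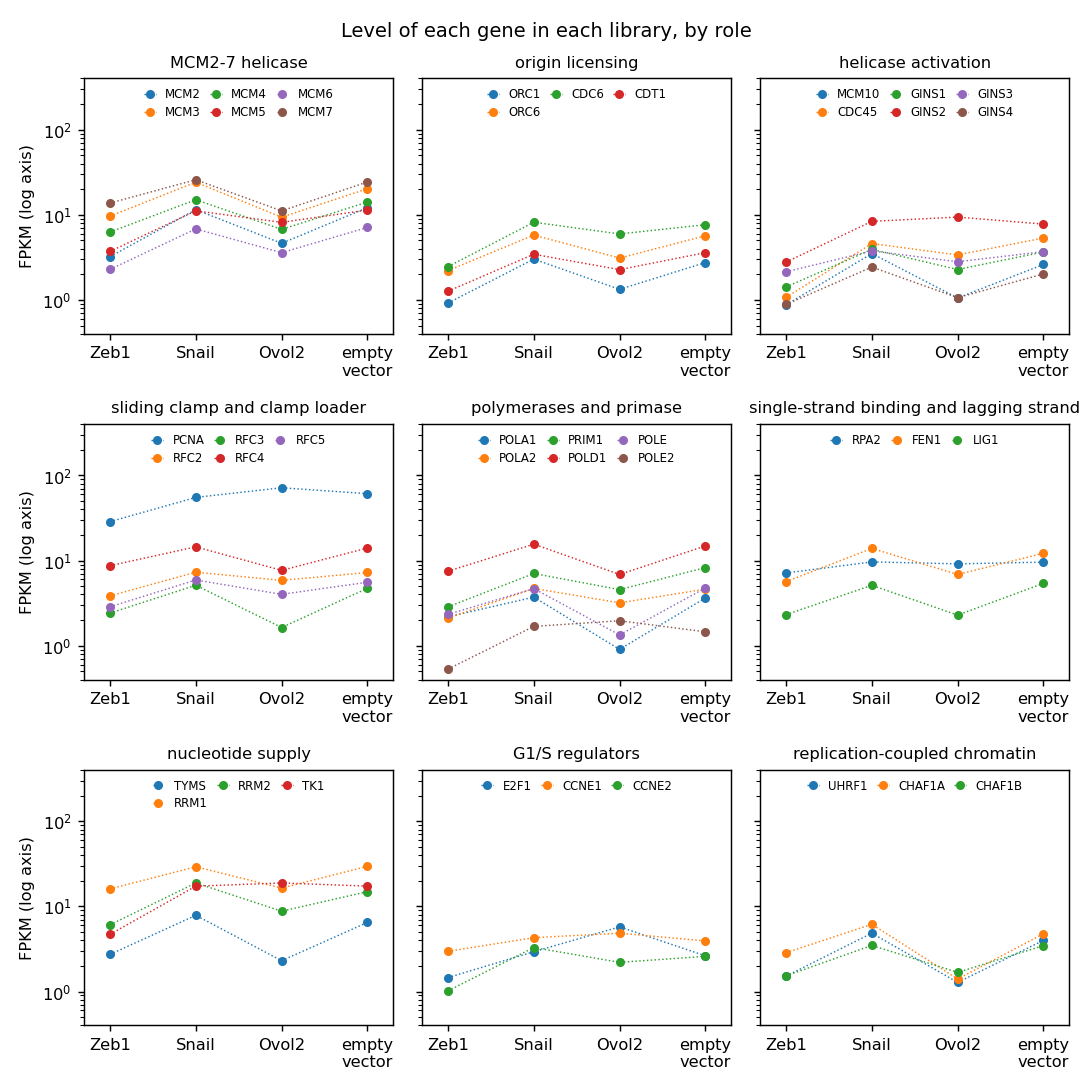
Level of each of the 40 genes (FPKM, log axis) in the Zeb1, Snail, Ovol2 and empty vector libraries, 1 panel per role, each point 1 library, with dotted lines that link a gene's points. Most genes dip at Zeb1 and at Ovol2, while PCNA, GINS2, POLE2, TK1, E2F1 and CCNE1 dip at Zeb1 alone and reach their highest value at Ovol2.

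With Zeb1, all 40 genes were lower than with EV, with a median log2 ratio of -0.94 and a range of -1.69 to -0.32. Without the pseudocount, the median gene stood at 44.0% of its EV level, and 27 of 40 were lower by 2-fold, beside 13.5% of all kept genes. Of the 40, 14 were lower by 2-fold or more, beside 8.49% of all 11922 kept genes, and 0 were higher, beside 4.52%. A value under EV by any amount was found in 40 of 40, beside 55.9% of all kept genes, whose median was -0.09. Centring on the median of genes at 5 FPKM or more, -0.14, left a median of -0.81 with 9 genes lower, beside 6.19%, and all 40 still below 0, beside 46.4%. Near the 2-fold rule, 8 genes lay just outside it and 5 just inside it, each within 0.1 on the log2 scale. With RMRP and RPPH1 left out of the scaling, 8 genes passed and the median was -0.74. That rescaling moves the ratios of all genes together, and the share of all kept genes under it is not given here.

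With Snail, 0 of 40 genes passed the 2-fold rule in either direction, beside 1.5% of all kept genes lower and 1.0% higher. The median log2 ratio was 0.07, and 11 of 40 lay under EV, beside 32.4%, within a range of -0.20 to 0.32, and the direction of that median turned under centring, to -0.08, with 31 of 40 below 0, beside 54.3%. All 11644 kept genes had a median of 0.12. With RMRP and RPPH1 left out of the scaling, 18 of the 40 lay under EV and their median was 0.03. The spread of the 40 log2 ratios, as a standard deviation over genes, was 0.13 with Snail, against 0.32 with Zeb1 and 0.51 with Ovol2.

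With Ovol2, 10 of 40 genes were lower by 2-fold or more, beside 25.1% of all 11812 kept genes, and 0 were higher, beside 6.82%. The median was -0.70 and the range -1.30 to 0.90, and 34 of 40 lay under EV, beside 71.9% of all kept genes, whose median was -0.51. By the 2-fold rule the 10 of 40 lay near the share of all genes. Centring removed -0.45 and left a median of -0.25, with 0 genes lower, beside 10.1%, and 1 higher, E2F1, beside 13.4%. By any amount, 26 of 40 were then below 0, beside 52.9%. Centring on the median of all kept genes gave -0.19. With RMRP and RPPH1 left out of the scaling, 16 genes were lower and the median was -0.92. That rescaling moves the ratios of all genes together. The share of all kept genes under it is not given here, so the 16 cannot be read as particular to the 40.

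**Figure D2:**
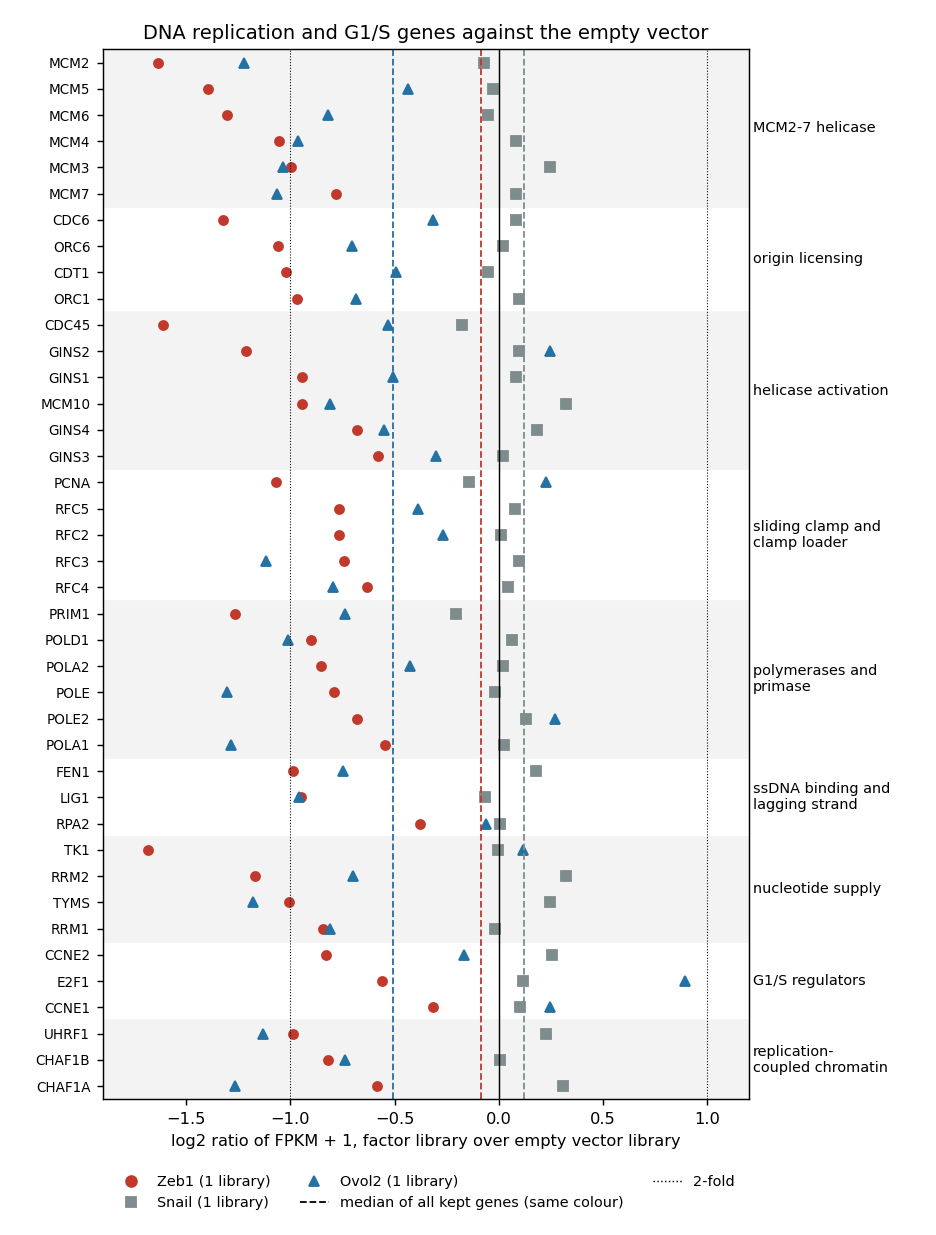
Log2 ratio of FPKM + 1 over the empty vector library for each of the 40 genes, grouped by role, for Zeb1 (circles), Snail (squares) and Ovol2 (triangles), 1 library each. Dashed lines give the median of all kept genes in the matching colour and dotted lines the 2-fold rule. All Zeb1 points lie between -1.69 and -0.32, the Snail points between -0.20 and 0.32, and the Ovol2 points between -1.30 and 0.90.

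The MCM2 to MCM7 helicase ring, the motor that unwinds DNA, gave some of the lowest ratios. MCM2 stood at 3.22 FPKM with Zeb1, 11.5 with Snail, 4.63 with Ovol2 and 12.1 with EV. MCM5 stood at 3.71 FPKM with Zeb1, 11.1 with Snail, 8.15 with Ovol2 and 11.4 with EV. MCM7 stood at 13.7 FPKM with Zeb1, 25.8 with Snail, 11.1 with Ovol2 and 24.3 with EV. For MCM2 the log2 ratios to EV were -1.64 with Zeb1, -0.07 with Snail and -1.22 with Ovol2, for MCM5 -1.39 with Zeb1, -0.03 with Snail and -0.44 with Ovol2, and for MCM7 -0.78 with Zeb1, 0.08 with Snail and -1.06 with Ovol2. With Zeb1, MCM2 was at 26.6% of EV and MCM5 at 32.6%, and 4 of the 6 ring genes passed the 2-fold rule, beside 8.49% of all kept genes, with a median of -1.18. Centring left 3 of them lower, beside 6.19% of all kept genes, with a median of -1.04. MCM6, MCM4 and MCM3 had log2 ratios of -1.30, -1.06 and -0.998 there, the last just short of the rule. The Snail median was 0.03. With Ovol2, 3 of 6 were lower, beside 25.1% of all kept genes, and the median was -1.0, with MCM5 nearest to EV at -0.44. After centring 0 of 6 were lower there, beside 10.1% of all kept genes, with a median of -0.55. After correction for transcript length 0 of 6 were, beside 8.24%, with a median of -0.33. MCM2 overlaps a transcript on the opposite strand over 30.7% of its exon bases, and the library kit does not mark strand, so their reads cannot be told apart.

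The origin licensing group holds ORC1 and ORC6, subunits of the origin recognition complex, and the loaders CDC6 and CDT1. CDC6 stood at 2.46 FPKM with Zeb1, 8.18 with Snail, 5.96 with Ovol2 and 7.65 with EV. ORC1 stood at 0.920 FPKM with Zeb1, 3.02 with Snail, 1.33 with Ovol2 and 2.75 with EV. For CDC6 the log2 ratios were -1.32 with Zeb1, 0.08 with Snail and -0.31 with Ovol2, and for ORC1 -0.97 with Zeb1, 0.10 with Snail and -0.69 with Ovol2. ORC6 and CDT1 had log2 ratios of -1.06 and -1.02 with Zeb1. Of the 4 genes, 3 were lower with Zeb1 (median -1.04), 0 with Snail (median 0.05) and 0 with Ovol2 (median -0.59). Of all kept genes, 8.49% were lower with Zeb1, 1.5% with Snail and 25.1% with Ovol2. Centring left 1 lower with Zeb1, beside 6.19% of all kept genes, with a median of -0.90.

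CDC45 and the GINS complex join the ring at S phase to make the active helicase, and MCM10 is needed for the step. CDC45 stood at 1.07 FPKM with Zeb1, 4.60 with Snail, 3.38 with Ovol2 and 5.34 with EV, a log2 ratio of -1.61 with Zeb1, where its level was 20.1% of EV. GINS2 stood at 2.78 FPKM with Zeb1, 8.38 with Snail, 9.41 with Ovol2 and 7.77 with EV, so its Ovol2 value was the highest of the 4. GINS3 had the smallest difference of the group with Zeb1, -0.58 on the log2 scale, and GINS1 and GINS4 were at -0.95 and -0.68. For the group of 6, 2 were lower with Zeb1 (median -0.94), 0 with Snail (median 0.09) and 0 with Ovol2 (median -0.52). Of all kept genes, 8.49% were lower with Zeb1, 1.5% with Snail and 25.1% with Ovol2. Both lower genes, CDC45 and GINS2, passed after centring, beside 6.19% of all kept genes. MCM10 had one of the highest Snail ratios of all 40, 0.32, at 3.51 FPKM with Snail and 2.61 FPKM with EV.

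PCNA is the ring that holds polymerases on DNA, and RFC proteins load it. PCNA, the most abundant member per length, stood at 28.7 FPKM with Zeb1, 55.3 with Snail, 71.7 with Ovol2 and 61.2 with EV. For PCNA the log2 ratios were -1.07 with Zeb1, -0.14 with Snail and 0.23 with Ovol2. RFC3 differed from it with Ovol2, at 1.64 FPKM with Ovol2 and 4.73 FPKM with EV, a log2 ratio of -1.12. Of 5 genes in the group, 1 was lower with Zeb1, PCNA, and 1 with Ovol2, RFC3, and neither passed after centring. Of all kept genes, 8.49% were lower with Zeb1 and 25.1% with Ovol2, and 6.19% and 10.1% after centring. RFC2, RFC4 and RFC5 lay between -0.77 and -0.63 with Zeb1. The group medians were -0.77 with Zeb1, 0.04 with Snail and -0.39 with Ovol2. Pseudogenes named after PCNA, RFC3, RFC5, RPA2, FEN1, TYMS and RRM2 are annotated, so their reads may have been shared.

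Among the polymerases, POLA1 and POLA2 belong to the primase complex with PRIM1, POLD1 copies the lagging strand, and POLE with POLE2 the leading strand. PRIM1 stood at 2.86 FPKM with Zeb1, 7.06 with Snail, 4.56 with Ovol2 and 8.28 with EV, and its Zeb1 ratio of -1.26 was the lowest of the group. POLA1 stood at 2.19 FPKM with Zeb1, 3.73 with Snail, 0.906 with Ovol2 and 3.65 with EV. POLE stood at 2.33 FPKM with Zeb1, 4.69 with Snail, 1.34 with Ovol2 and 4.77 with EV. With Ovol2, POLE was at -1.30 and POLA1 at -1.29 on the log2 scale, the lowest 2 ratios among the 40, or 28.1% and 24.8% of EV. POLE2, the small subunit of the same enzyme as POLE, stood at 0.531 FPKM with Zeb1, 1.69 with Snail, 1.97 with Ovol2 and 1.46 with EV, with the lowest Zeb1 level of the 40 at 0.531 FPKM. Of the 6 genes, 1 was lower with Zeb1, PRIM1 (median -0.82), 0 with Snail (median 0.02) and 3 with Ovol2 (median -0.87), beside 8.49% of all kept genes lower with Zeb1 and 25.1% with Ovol2. With Ovol2, 0 of 6 were lower after centring (median -0.42), beside 10.1%, and 0 after length correction (median -0.28), beside 8.24%. Before centring, the 3 with Ovol2 were POLA1, POLE and POLD1, the last at -1.01, while POLA2 was at -0.43. POLA2 and PRIM1 overlap other transcripts on the same strand over 53.7% and 26.0% of their exon bases.

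RPA2 coats single strands, FEN1 trims Okazaki fragments and LIG1 seals them. RPA2 stood at 7.15 FPKM with Zeb1, 9.66 with Snail, 9.16 with Ovol2 and 9.60 with EV, the second smallest Zeb1 difference of the 40 at -0.38. FEN1 stood at 5.66 FPKM with Zeb1, 13.9 with Snail, 6.87 with Ovol2 and 12.2 with EV. FEN1 and LIG1 had log2 ratios of -0.99 and -0.95 with Zeb1, and -0.75 and -0.96 with Ovol2. None of the 3 passed the 2-fold rule in any of the 3 comparisons, with medians of -0.95 with Zeb1, 0.01 with Snail and -0.75 with Ovol2. Of all kept genes, 8.49% were lower with Zeb1, 1.5% with Snail and 25.1% with Ovol2. A count of 0 of 3 does not stand apart from these shares.

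The nucleotide supply genes make deoxynucleotides: RRM1 and RRM2 form ribonucleotide reductase, TYMS makes thymidylate and TK1 salvages thymidine. TK1 stood at 4.69 FPKM with Zeb1, 17.3 with Snail, 18.8 with Ovol2 and 17.3 with EV. The TK1 ratio with Zeb1, -1.69, was the lowest of the 40, while its level with Snail and with Ovol2 lay near that with EV. Without the pseudocount, TK1 was at 27.1% of EV with Zeb1, above CDC45 at 20.1% and MCM2 at 26.6%. TYMS stood at 2.73 FPKM with Zeb1, 7.86 with Snail, 2.30 with Ovol2 and 6.48 with EV, with a log2 ratio of -1.0 with Zeb1 and -1.18 with Ovol2, the fifth lowest of the 40 there. RRM2 stood at 6.07 FPKM with Zeb1, 18.9 with Snail, 8.78 with Ovol2 and 14.9 with EV, and its Snail ratio of 0.32 was the highest of the 40. RRM1 had ratios of -0.84 with Zeb1, -0.02 with Snail and -0.81 with Ovol2. Of 4 genes, 3 were lower with Zeb1 (median -1.09), 0 with Snail (median 0.12) and 1 with Ovol2 (median -0.76). Of all kept genes, 8.49% were lower with Zeb1, 1.5% with Snail and 25.1% with Ovol2. Centring left 2 lower with Zeb1, beside 6.19% of all kept genes, and 0 with Ovol2, beside 10.1%. TYMS overlaps ENOSF1 on the opposite strand over 58.2% of its exon bases, and RRM2 overlaps another transcript on the same strand over 27.9%.

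The G1/S regulators are E2F1, a transcription factor that drives S-phase genes, and the cyclins E, CCNE1 and CCNE2. E2F1 stood at 1.46 FPKM with Zeb1, 2.94 with Snail, 5.75 with Ovol2 and 2.63 with EV. CCNE1 stood at 2.96 FPKM with Zeb1, 4.30 with Snail, 4.84 with Ovol2 and 3.93 with EV. CCNE2 stood at 1.02 FPKM with Zeb1, 3.29 with Snail, 2.20 with Ovol2 and 2.59 with EV. E2F1 had log2 ratios of -0.56 with Zeb1, 0.12 with Snail and 0.90 with Ovol2, CCNE1 -0.32 with Zeb1, 0.10 with Snail and 0.24 with Ovol2, and CCNE2 -0.83 with Zeb1, 0.26 with Snail and -0.17 with Ovol2. CCNE1 had the smallest Zeb1 difference of the 40, and E2F1 had the highest Ovol2 ratio, at 219% of EV without the pseudocount. None of the 3 passed the 2-fold rule with Zeb1 (median -0.56), with Snail (median 0.12) or with Ovol2 (median 0.24). Of all kept genes, 8.49%, 1.5% and 25.1% were lower, in that order, and 4.52%, 1.0% and 6.82% higher. A count of 0 of 3 does not stand apart from these shares. Centring put E2F1 past the 2-fold rule with Ovol2, beside 13.4% of all kept genes higher. CCNE2 overlaps INTS8 on the opposite strand over 47.5% of its exon bases.

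UHRF1, which directs DNA methylation to new strands, and CHAF1A and CHAF1B, which place histones behind the fork, act on newly copied chromatin. UHRF1 stood at 1.52 FPKM with Zeb1, 4.85 with Snail, 1.28 with Ovol2 and 3.99 with EV. CHAF1A stood at 2.86 FPKM with Zeb1, 6.16 with Snail, 1.40 with Ovol2 and 4.78 with EV. With Ovol2, UHRF1 was at -1.13 and CHAF1A at -1.27, the third lowest of the 40, and both passed the 2-fold rule. With Snail, CHAF1A was at 0.31, the third highest there. CHAF1B, its partner, had ratios of -0.82 with Zeb1, 0.01 with Snail and -0.74 with Ovol2. With Zeb1, 0 of 3 were lower by 2-fold, beside 8.49% of all kept genes, with a median of -0.82. With Snail 0 of 3 passed, beside 1.5% of all kept genes lower and 1.0% higher, with a median of 0.23. With Ovol2, 2 of 3 were lower, beside 25.1% of all kept genes, with a median of -1.13. After centring 0 of 3 were lower there, beside 10.1% of all kept genes, with a median of -0.68. After length correction 0 of 3 were, beside 8.24%, with a median of -0.42.

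Set directly against each other, the Zeb1 library lay below the Snail library for 40 of 40 genes, beside 66.9% of kept genes. By 2-fold, 19 of 40 were lower with Zeb1, beside 6.43%, and 0 higher, beside 2.34%. The median log2 ratio of Zeb1 over Snail was -0.97. Centring left a median of -0.70 and 7 genes lower, beside 2.75%. Ovol2 over Zeb1 gave a median of 0.34, against -0.43 for all kept genes, with 6 of 40 higher by 2-fold, beside 14.4%, and 0 lower, beside 28.8%. Those 6 were TK1 at 1.80, GINS2 and E2F1 at 1.46, PCNA at 1.29, CDC45 at 1.08 and CDC6 at 1.01. By any amount, 29 of 40 were higher with Ovol2, beside 36.1%. With RMRP and RPPH1 left out of the scaling, the median of the 40 was -0.04 and 3 genes were higher by 2-fold. By any amount, 24 of 40 were then lower with Ovol2. The shares of all kept genes under that scaling are not given here. Ovol2 over Snail gave a median of -0.74, against -0.62 for all kept genes, with 13 of 40 lower, beside 32.4%, and 0 higher, beside 8.83%. The count lower was 0 after centring (median -0.10), 0 after upper-quartile scaling (median -0.04) and 1 after length correction (median -0.05). Shares of all kept genes after these corrections are not given for this comparison, so the fall from 13 cannot be read as particular to the 40.

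Transcript length moved with the ratios of all genes, and its part in the results was not tested beyond the correction given here. Over all kept genes with a length, Spearman's rho between length and log2 ratio was 0.315 with Zeb1 (n = 11293), 0.299 with Snail (n = 11042) and -0.496 with Ovol2 (n = 11211). These describe genes that share a library and are not replicates. Over the 40 genes, rho was 0.00281 with Zeb1, 0.0942 with Snail and -0.499 with Ovol2. With Ovol2, the longer 20 genes, of 3084 bases or more, had a median log2 ratio of -0.89, with 0 above EV, and the shorter 20, of 3076 bases or less, had -0.31, with 6 above EV. Subtracting the median of kept genes of like length, in 10 bins, left a median of -0.81 with Zeb1, -0.05 with Snail and -0.10 with Ovol2. After it, 11 were lower by 2-fold with Zeb1, beside 5.83%. With Ovol2, 1 was lower, TYMS, beside 8.24%, and 1 higher, E2F1, beside 9.43%.

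**Figure D3:**
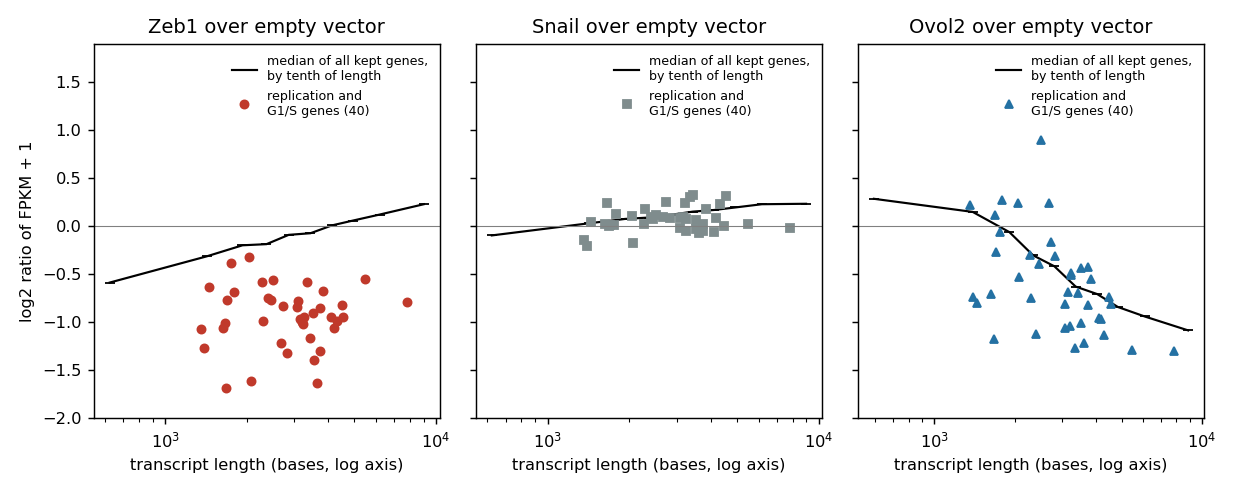
Log2 ratio of FPKM + 1 over the empty vector library against transcript length (bases, log axis), 1 panel per factor. The line gives the median of all kept genes in each of 10 length bins, and each point is 1 of the 40 genes. With Zeb1 all points lie below the line, and with Ovol2 the points scatter around a line that runs down with length.

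Promoter letters were read for 35 of the 40 genes, the 250 bases before the start site, from RefSeq on GRCh38.p14. All motifs were searched on both strands. E2F sites, where the G1/S factor binds, were searched as TTCCCGC or TTGGCGC. E2F matches were in 18 of 35 promoters, 51.4%, beside 13.0% of 8979 promoters of expressed genes and 7.95% of 27305 promoters in all. The CCAAT box, bound by the factor NF-Y, was in 20 of 35, 57.1%, beside 35.8% of expressed and 33.0% of all. The E2-box, known as the site of Zeb1 and Snail, was searched as CAGGTG and was in 3 of 35, 8.57%, beside 16.0% of expressed and 17.5% of all. The cell-cycle homology region, searched as TTTGAA, was in 1 of 35, 2.86%, beside 8.39% of expressed and 13.6% of all. The OVOL core, searched as CCGTTA, was in 0 of 35, beside 3.29% of expressed and 2.52% of all. A match is a description of letters, not a bound site. Genes with an E2F match and genes without had medians of -0.96 and -0.94 with Zeb1, 0.06 and 0.06 with Snail, and -0.89 and -0.51 with Ovol2.

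Shown first are the 3 genes lowest with Zeb1 and the highest, CCNE1, then 3 chosen after their values were seen because they hold E2F matches. Capitals mark E2F and CCAAT matches on either strand. Coordinates are chr17:78187205-78187454 (minus strand) for TK1, chr3:127598161-127598410 (plus strand) for MCM2, chr22:19479670-19479919 (plus strand) for CDC45, chr19:29811741-29811990 (plus strand) for CCNE1, chr2:135876444-135876693 (minus strand) for MCM6, chr12:132687343-132687592 (minus strand) for POLE and chr20:33686386-33686635 (minus strand) for E2F1. In MCM6 the E2F matches begin 151 and 89 bases before the start, in POLE 113 and 18, and in E2F1 19.
TK1: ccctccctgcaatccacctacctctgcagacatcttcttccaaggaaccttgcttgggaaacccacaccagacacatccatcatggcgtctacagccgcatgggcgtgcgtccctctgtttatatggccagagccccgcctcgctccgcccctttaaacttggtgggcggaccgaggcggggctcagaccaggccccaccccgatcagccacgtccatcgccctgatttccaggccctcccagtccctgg
MCM2: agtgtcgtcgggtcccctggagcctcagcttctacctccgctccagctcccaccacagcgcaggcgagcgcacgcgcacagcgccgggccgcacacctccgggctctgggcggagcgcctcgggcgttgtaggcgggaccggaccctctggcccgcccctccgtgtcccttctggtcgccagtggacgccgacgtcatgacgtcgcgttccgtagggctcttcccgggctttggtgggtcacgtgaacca
CDC45: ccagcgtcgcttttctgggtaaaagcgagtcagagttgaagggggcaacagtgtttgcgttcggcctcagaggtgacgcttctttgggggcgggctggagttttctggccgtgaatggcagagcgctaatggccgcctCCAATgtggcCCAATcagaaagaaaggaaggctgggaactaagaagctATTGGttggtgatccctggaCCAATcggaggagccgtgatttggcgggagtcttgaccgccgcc
CCNE1: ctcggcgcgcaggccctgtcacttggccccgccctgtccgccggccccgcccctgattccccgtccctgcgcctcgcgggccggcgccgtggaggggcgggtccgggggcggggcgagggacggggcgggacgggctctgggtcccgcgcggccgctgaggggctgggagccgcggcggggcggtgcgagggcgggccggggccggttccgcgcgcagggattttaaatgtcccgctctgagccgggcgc
MCM6: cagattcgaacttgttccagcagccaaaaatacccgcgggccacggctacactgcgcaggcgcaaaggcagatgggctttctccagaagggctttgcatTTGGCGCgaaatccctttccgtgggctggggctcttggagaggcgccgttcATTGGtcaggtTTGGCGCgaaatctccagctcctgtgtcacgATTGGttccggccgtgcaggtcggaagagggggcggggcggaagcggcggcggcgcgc
POLE: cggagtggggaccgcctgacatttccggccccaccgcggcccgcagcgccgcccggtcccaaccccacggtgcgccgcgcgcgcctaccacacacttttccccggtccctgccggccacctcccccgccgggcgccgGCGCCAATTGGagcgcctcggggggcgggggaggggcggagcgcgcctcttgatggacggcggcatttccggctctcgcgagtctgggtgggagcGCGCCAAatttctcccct
E2F1: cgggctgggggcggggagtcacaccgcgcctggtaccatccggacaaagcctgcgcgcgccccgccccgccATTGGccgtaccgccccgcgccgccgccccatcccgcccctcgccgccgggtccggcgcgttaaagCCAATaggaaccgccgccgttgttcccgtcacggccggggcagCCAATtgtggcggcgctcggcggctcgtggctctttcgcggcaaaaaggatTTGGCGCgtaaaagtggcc
Of these, TK1, MCM2, CDC45 and CCNE1 hold neither E2F word searched, TTCCCGC or TTGGCGC, and include both the lowest and the highest Zeb1 ratios of the 40. Other forms of the E2F site were not searched, so these promoters may still hold one. A relation between E2F sites and the ratios was not tested.

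A list of 40 further replication genes was read in the same way. With Zeb1, 8 of 40 were lower, beside 8.49% of all kept genes, and 0 higher, with a median of -0.55, led by POLD2, a polymerase delta subunit, at -1.53, with the nucleotide-pool enzyme DCTPP1 and the histone chaperone ASF1B both at -1.41. With Snail, 0 passed, beside 1.5% of all kept genes lower and 1.0% higher, and the median was 0.07. After centring 7 were lower with Zeb1, beside 6.19% of all kept genes. By any amount, 36 of 40 lay under EV with Zeb1, beside 55.9%, and 36 after centring, beside 46.4%. With Ovol2, 8 were lower, beside 25.1% of all kept genes, and 1 was higher, POLD4 at 1.07, beside 6.82%. The Ovol2 median was -0.54, and 0 were lower after centring, beside 10.1%, and 0 after length correction, beside 8.24%. The lowest was RFC1, the large clamp loader subunit, at -1.42. Upstream G1 regulators, of which 20 of 22 were kept, had 2 lower with Zeb1, near the 8.49% share of all kept genes. Their Zeb1 median was -0.37, with 13 of 20 below EV and 7 above it. MYC, a growth regulator, stood at 65.3 FPKM with Zeb1 and 211 FPKM with EV, and CCND1, cyclin D1, at 6.17 FPKM with Zeb1 and 21.2 FPKM with EV, log2 ratios of -1.67 and -1.63. Both passed after centring too, beside 6.19% of all kept genes. With Ovol2, 8 of 20 were lower, beside 25.1% of all kept genes, 2 after centring, beside 10.1%, and 1 after length correction, beside 8.24%. They were led by SKP2, which targets the inhibitor p27 for breakdown, at -1.81 and CDK6, a partner of cyclin D, at -1.47. With Snail 0 of 20 passed, beside 1.5% of all kept genes lower and 1.0% higher.

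Inhibitors of cyclin-dependent kinases hold cells before S phase. Of 7, 5 were kept, while CDKN2A and CDKN2B, which MCF10A is known to have lost, were listed at 0 in all 4 libraries. CDKN1A, the p21 inhibitor, stood at 189.5 FPKM with Ovol2 and 77.1 FPKM with EV, a log2 ratio of 1.29. CDKN1C, the p57 inhibitor, stood at 6.36 FPKM with Zeb1, 8.22 with Snail, 7.31 with Ovol2 and 2.73 with EV, with log2 ratios of 0.98 with Zeb1, 1.31 with Snail and 1.16 with Ovol2. With Ovol2, these 2 of 5 were higher by 2-fold, beside 6.82% of all kept genes. With Snail 1 of 5 was, CDKN1C, beside 1.0%, and with Zeb1 0 of 5, beside 4.52%. Centring put CDKN1C past the rule with Zeb1. CDKN1B, the p27 inhibitor, stood at 21.1 FPKM with Zeb1, 20.5 with Snail, 10.7 with Ovol2 and 16.7 with EV, a log2 ratio of -0.60 with Ovol2. CDKN2C and CDKN2D, of the INK4 family, were at 0.28 and 0.20 with Ovol2, 0.13 and -0.21 with Snail and 0.56 and 0.30 with Zeb1.

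The mitosis and G2/M genes act after replication. With Zeb1, 7 of 43 were lower, beside 8.49% of all kept genes, with a median of -0.72. After centring 3 were lower there, beside 6.19%, and after length correction 2, beside 5.83%, so both 2-fold counts came near the share of all genes. By any amount, though, 42 of 43 lay under EV with Zeb1, beside 55.9% of all kept genes. After centring 42 of 43 were still below 0, beside 46.4%, with a median of -0.58. With Ovol2, 25 of 43 were lower, beside 25.1% of all kept genes, with a median of -1.25. After centring 20 were lower with Ovol2, beside 10.1%, and after length correction 11, beside 8.24%. Whether the lists differ between the libraries was not tested, and the lists were chosen with earlier results of these data known. None passed the rule with Snail, beside 1.5% of all kept genes lower and 1.0% higher, with a median of 0.13. With Ovol2 the kinetochore gene CENPF was at -3.02 and topoisomerase TOP2A at -2.49, and with Zeb1 the securin gene PTTG1 was at -1.68 and CDC20 at -1.27. The median of the 40 genes minus that of these 43 was -0.23 with Zeb1 and 0.54 with Ovol2, and -0.17 and 0.76 after the length correction. With Snail it was -0.06.

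**Figure D4:**
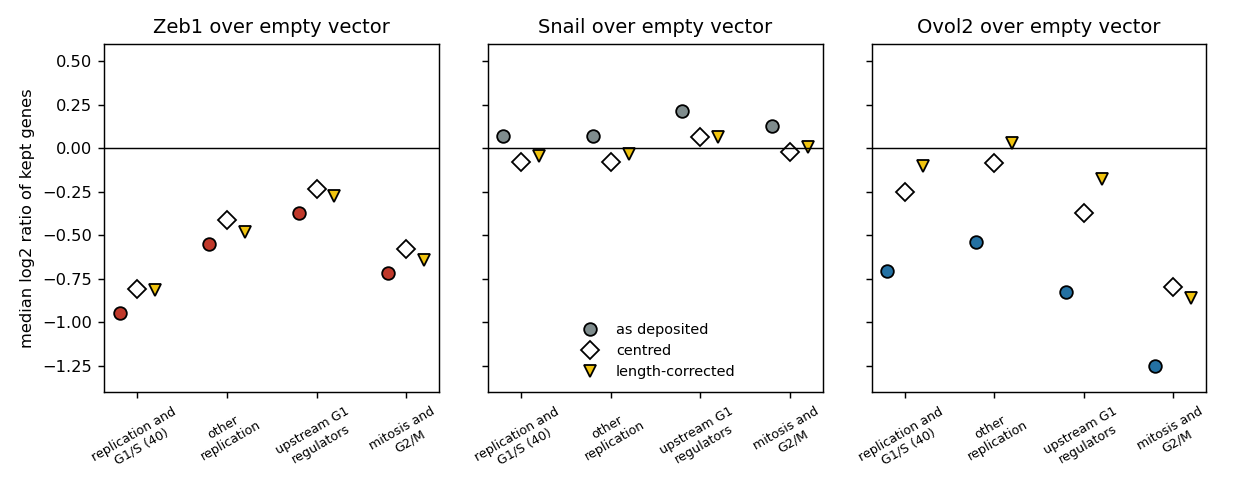
Median log2 ratio over the empty vector library for the 40 genes and for 3 other cell-cycle lists, 1 panel per factor, as deposited (circles), centred (diamonds) and corrected for length (triangles). With Zeb1 the 40 genes have the lowest median, -0.94, and with Ovol2 the mitosis and G2/M genes do, -1.25.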

How the data were processed

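RNA was measured in 4 libraries, 1 per group. Per the labels' protocols, total RNA was taken on columns and made into TruSeq RNA v2 libraries, and TopHat, Cufflinks, Cuffdiff and the build hg19 are listed without their roles, per the submitters' processing notes. No version, annotation or strand setting is given in the sources used here. The authors deposited 3 tables of 25360 rows. No header names the unit, and the deposited values behaved like FPKM and were taken as such. The EV column was identical in all 3 tables, so the factor libraries were also compared directly. The signed fold, a score in the authors' deposited tables, served as an alternative only. The deposited p-values and degrees of freedom were not used.

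Values of 43 rows with a repeated symbol were added together. Ratios used a pseudocount of 1 FPKM, which understates differences of low genes. Lengths and overlaps came from GENCODE 29, with lengths for all 40 genes. Of the 40, 9 overlap another gene over 10% or more of their exon bases. Beside MCM2, TYMS and CCNE2 these are POLA2 (53.7%), RRM2 (27.9%), PRIM1 (26.0%), GINS4 (21.2%), GINS3 (16.5%) and POLD1 (12.1%). Scripts ran in Python 3.11.15 with numpy 2.4.6, pandas 2.3.3 and scipy 1.17.1, and were tested on simulated data. Depth was estimated, so no counting interval is given. The 40 genes, their roles and the other lists were chosen with earlier results of these data known. Named genes are the 5 lowest and 3 highest in each comparison with EV, the extremes of each role, and up to 3 genes of each other list with the largest ratio. The alternatives were centring, upper-quartile scaling, RMRP and RPPH1 left out, a pseudocount of 0.1, a 5 FPKM filter, length correction and the authors' fold.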

Additional observations from a re-analysis of the deposited data

Results flagged for a closer look

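E2F1 was at 5.75 FPKM with Ovol2 and 2.63 FPKM with EV, a log2 ratio of 0.90, while with Zeb1 its log2 ratio to EV was -0.56. The ratios to EV had opposite signs with Ovol2 and with Zeb1, each by more than 0.5 on the log2 scale, which drew attention to it. PCNA, GINS2, TK1, POLE2 and CCNE1 also had opposite signs, with Ovol2 ratios of 0.12 to 0.27 that lay under that size. For E2F1, both ratios share the EV library, each group held 1 library, and the difference between them was not tested.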

How the results depend on the processing

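With Zeb1, 40 of 40 genes lay below EV under each alternative, and 23 of 23 under the 5 FPKM filter. The count lower by 2-fold, 14 as reported, was 9 under centring, 9 under upper-quartile scaling, 9 under centring on all kept genes (chosen after seeing the data), 8 without RMRP and RPPH1, 27 with a pseudocount of 0.1 and 27 by the authors' deposited fold. The median of -0.94 became -0.81 under centring, -0.74 without RMRP and RPPH1, -1.14 with the 0.1 pseudocount, -1.06 under the 5 FPKM filter, -0.81 under length correction and -1.18 by the authors' deposited fold. With Snail, the median of 0.07 turned to -0.079 under centring, -0.088 under upper-quartile scaling, -0.046 under length correction and -0.050 under centring on all kept genes. With Ovol2, the 10 lower genes became 0 under centring, 0 under upper-quartile scaling, 0 under centring on all kept genes, 16 without RMRP and RPPH1, 5 under the 5 FPKM filter and 1 under length correction. The 0 higher genes became 1, E2F1, under both kinds of centring, upper-quartile scaling, the 0.1 pseudocount, length correction and the authors' deposited fold. The Ovol2 median of -0.70 became -0.25 under centring, -0.14 under upper-quartile scaling, -0.92 without RMRP and RPPH1, -0.85 with the 0.1 pseudocount, -0.10 under length correction, -0.85 by the authors' deposited fold and -0.19 under centring on all kept genes. These settings act on all genes. The share of all kept genes lower with Zeb1 was 8.49% as reported, 6.19% centred, 5.83% length-corrected and 13.5% without a pseudocount. With Ovol2 that share was 25.1% as reported, 10.1% centred and 8.24% length-corrected. Shares lower under the other settings are not given, so those counts cannot be read as particular to the 40.

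For Zeb1 over Snail, the 19 lower genes became 7 under centring, 12 under upper-quartile scaling, 11 without RMRP and RPPH1, 29 with the 0.1 pseudocount and 11 under length correction, and the median of -0.97 became -0.70, -0.76, -0.80, -1.28 and -0.75 in that order, and -1.07 under the 5 FPKM filter. For Ovol2 over Zeb1, the 0 lower genes became 2 without RMRP and RPPH1 and 1 with the 0.1 pseudocount, and the 6 higher became 13 under upper-quartile scaling and 3 without RMRP and RPPH1. That median of 0.34 became 0.66 under centring, 0.87 under upper-quartile scaling, -0.043 without RMRP and RPPH1, 0.47 with the 0.1 pseudocount and 0.78 under length correction. For Ovol2 over Snail, the 13 lower became 0 under centring, 0 under upper-quartile scaling and 1 under length correction, the 0 higher became 2, 2 and 1 in that order, and the median of -0.74 became -0.10, -0.036 and -0.053, with -0.92 without RMRP and RPPH1 and -0.89 with the 0.1 pseudocount. For these direct comparisons, shares of all kept genes under the alternatives are not given, apart from 2.75% lower under centring for Zeb1 over Snail. The cause of these shifts was not tested. No paired analysis was possible because each group held 1 library, and for the same reason no library could be left out. Depth limits POLE2, CDC45 and TYMS, whose lowest values rest on fewer than 100 approximate fragments.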
